A study of Mus musculus with 6 samples.

Results

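Osteoprotegerin, a secreted decoy receptor of the tumor necrosis factor (TNF) receptor family, was examined together with its ligands and the receptors that those ligands activate. The group was taken from the gene table by symbol and held 5 of its 22295 genes: Tnfrsf11b (osteoprotegerin), Tnfsf11 (RANKL), Tnfrsf11a (RANK), Tnfsf10 (TRAIL) and Tnfrsf10b (the TRAIL receptor). Tnfrsf11b was selected on its measured difference between the genotypes compared here, so its levels are given as a description without a test. The other 4 genes were taken as its ligands and their receptors and not for their own values.

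RNA was sequenced from GFP-positive keratinocytes, sorted by FACS from the back skin epidermis of mice on an FVB background (FVB/N in the study's methods), in 3 K19 Itga3 WT and 3 K19 Itga3 KO libraries. WT mice carried the Cre, given as 19(Cre-ERT) in the labels, with the mTmG reporter, and KO mice carried both with Itga3 fl/fl. The Cre is driven by the keratin 19 promoter, which is active in the hair bulge (HB), the stem cell compartment of the resting hair follicle. Tamoxifen activates the Cre, which turns on GFP in HB cells and their progeny and in KO mice also removes the floxed part of Itga3, the gene of the integrin α3 subunit. According to the labels, mice of both genotypes received tamoxifen (10 mg/ml) over 4 days at 6 weeks of age, a single dose of DMBA (30 μg) at 7 weeks and then repeated TPA (12.34 μg). The study's methods give another tamoxifen concentration and an earlier start, and add topical tamoxifen. They describe the treatment of these mice as short-term, with 4 doses of TPA, and the study places it before tumors had formed. All libraries therefore came from carcinogen-treated skin, and there was no untreated group. Nothing in the count table ties a column to a numbered sample, so the libraries of each genotype are named a, b and c in table order, and wherever 3 values are given for a genotype they stand in that order.

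RANKL is a membrane-bound or shed ligand that activates RANK, a receptor which signals through TRAF adaptors to NF-κB and is best known for driving the formation of osteoclasts, the cells that resorb bone. Osteoprotegerin has no membrane anchor and binds RANKL outside the cell, which keeps it from RANK. It can also bind TRAIL, a ligand that starts apoptosis through receptors with a death domain, and mice have further TRAIL decoy receptors, encoded by Tnfrsf22 and Tnfrsf23. In skin, RANKL and RANK have been linked to the hair cycle and to epidermal growth.

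Depth lay between 20578309 and 23670507 counts per library, at which 3 counts, taken as the floor of detection, correspond to 0.128 to 0.145 CPM (counts scaled for library size with TMM factors). The floor covers counting error only. Itga3 stood at 252 to 371 CPM in WT and at 124 to 134 CPM in KO libraries. The keratinocyte and HB markers Krt5, Krt14, Krt15, Cd34, Lgr5, Sox9, Lhx2 and Itga6 summed to 31947 to 48876 CPM in WT and 37192 to 43191 CPM in KO libraries, and only Cd34 among these 8 genes had an adjusted p below 0.05 (lower in KO, log2 fold change −0.72). Most of this sum was Krt5, Krt15 and Krt14. The HB marker Lgr5 had 586 ± 116 CPM in WT and 424 ± 92.1 CPM in KO (SD, n = 3), with an adjusted p of 0.283 in edgeR and an unadjusted p of 0.0167. Krt19 itself, whose promoter drives the Cre, was low, with 2.20 to 4.77 CPM in all 6 libraries. Of 21681 genes with a count in any library, 146 passed in KO against WT (adjusted p below 0.05 in edgeR's quasi-likelihood test), which is 0.673%, with 0.461% higher and 0.212% lower in KO. This number rests on few libraries: it was 5 without WT c, 10 without KO a and 30 without KO c, and 521 without WT a.

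Tnfrsf11b (ENSMUSG00000063727) lies on chromosome 15 from 54250619 to 54278484 (GRCm38) on the minus strand, and no other annotated gene overlaps it. Its level was 60.4, 74.7 and 61.9 CPM in WT and 23.8, 32.2 and 17.5 CPM in KO. Every KO library was below every WT library, and the lowest WT library stood 1.88 times above the highest KO library. In raw counts this is 1317 to 1631 in WT and 362 to 686 in KO. The mean of the KO libraries was 37.3% of that of the WT libraries, a fitted log2 fold change of −1.42 (standard error 0.18), with a range of −1.65 to −1.23 when single libraries were left out. Over all genes tested, 8.23% had every KO library below every WT library and 16.3% had genotypes that did not overlap in either direction; among the 5 genes these were Tnfrsf11b and Tnfsf11. Within a genotype the highest library stood 1.24 times above the lowest in WT and 1.84 times in KO. The KO libraries thus differed more among themselves in Tnfrsf11b than in Itga3, which stood at 131, 124 and 134 CPM in KO. In WT it was the reverse, with Itga3 at 371, 252 and 271 CPM. In such bulk RNA, fewer cells that express a gene and less of its RNA per cell cannot be told apart.

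**Figure D1:**
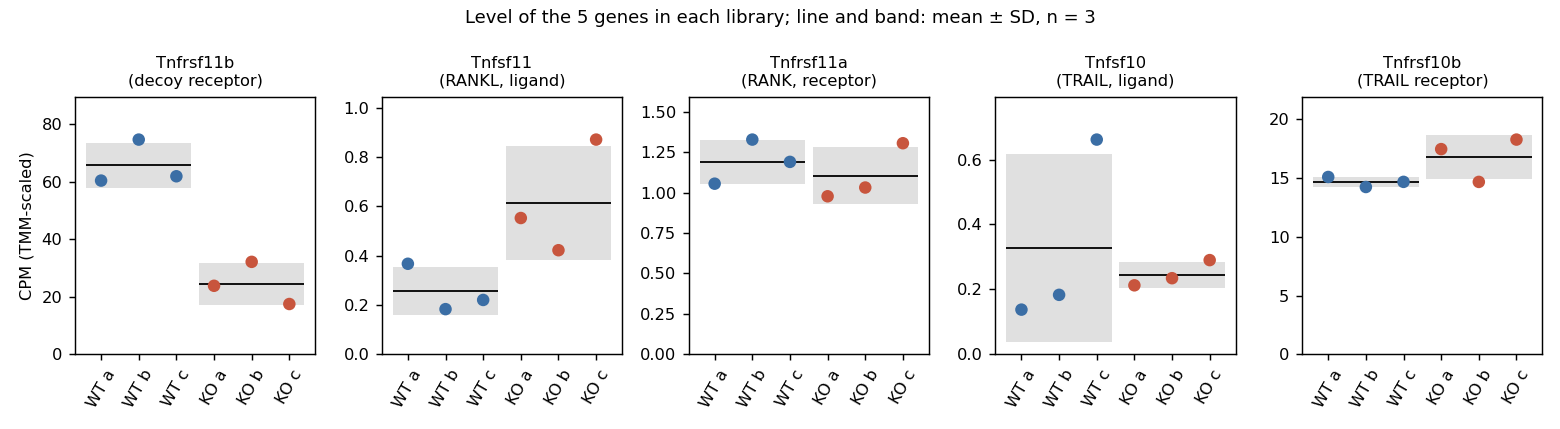
CPM (TMM-scaled) of the 5 genes in each of the 6 libraries, with points for single libraries (blue WT, red KO), lines for genotype means and bands for ± SD (n = 3); each panel has its own axis from 0. Tnfrsf11b lies between 60.4 and 74.7 CPM in WT and between 17.5 and 32.2 CPM in KO libraries, whereas Tnfsf11 and Tnfsf10 stay below 1 CPM.

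Tnfsf11 (ENSMUSG00000022015, chromosome 14, 78277445 to 78308043, minus strand), the gene of RANKL, was low in every library and nearer the floor in WT than in KO. It had 8, 4 and 5 counts in WT and 13, 9 and 18 counts in KO, or 0.367, 0.183 and 0.220 CPM and 0.553, 0.422 and 0.871 CPM. Every KO library was above every WT library, an order that 8.03% of all genes tested shared. The fitted log2 fold change of 1.24 (standard error 0.49, 95% interval 0.17 to 2.31) did not pass (adjusted p = 0.343 in edgeR). The unadjusted p was 0.0266, a side of 0.05 on which 2503 of the 21681 genes lay. Summed over libraries, 17 counts in WT (95% Poisson interval 9.90 to 27.2) faced 40 counts in KO (28.6 to 54.5), and these intervals cover counting error only. The fold change stayed positive in every alternative that could be fitted, from 0.91 without KO c to 1.58 without WT a, and none of them called it.

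Tnfrsf11a (ENSMUSG00000026321, chromosome 1, 105780718 to 105847981, plus strand), the gene of RANK, was detected at a low level in every library. Its counts were 23, 29 and 27 in WT and 23, 22 and 27 in KO, which is 1.06 to 1.33 CPM in WT and 0.978 to 1.31 CPM in KO. The genotypes overlapped almost fully. The fitted difference was −0.11 ± 0.30 on the log2 scale (standard error; adjusted p = 0.904 in edgeR), and its 95% interval of −0.76 to 0.54 leaves room for a moderate change in either direction.

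Tnfrsf10b (ENSMUSG00000022074, chromosome 14, 69767472 to 69784403, plus strand), the death-domain receptor for TRAIL, had the higher level per kilobase of the 2 signalling receptors. It had 15.1, 14.2 and 14.7 CPM in WT and 17.5, 14.7 and 18.3 CPM in KO, on 311 to 411 counts per library. KO a and KO c lay above all WT libraries, whereas KO b lay among them. The log2 fold change of 0.20 (standard error 0.13, 95% interval −0.09 to 0.48) did not pass (adjusted p = 0.637 in edgeR). Tnfrsf10b and Tnfsf11 share chromosome 14 at a distance of 8.49 Mb.

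Tnfsf10 (ENSMUSG00000039304, chromosome 3, 27317028 to 27342427, plus strand), the gene of TRAIL, had 3, 4 and 15 counts in WT and 5, 5 and 6 counts in KO. WT c, with 0.661 CPM, stood apart from the other 5 libraries, which lay between 0.138 and 0.290 CPM, and WT a was at the floor. The fitted difference was −0.42 ± 0.64 on the log2 scale (standard error; adjusted p = 0.815 in edgeR) with all libraries and 0.59 without WT c, so that WT c alone set its sign. No difference in Tnfsf10 was detected, and the 95% interval with all libraries ran from −1.83 to 0.98. None of the 4 partner genes thus passed in edgeR, and none passed in limma-voom or DESeq2, where DESeq2 gave no adjusted p for Tnfsf11 and Tnfsf10.

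Levels of different genes were compared as CPM per kilobase of exon. On this scale Tnfrsf11b ranked first of the 5 genes and Tnfrsf10b second in all 6 libraries. Tnfrsf11b stood at 23.3 ± 2.78 (SD, n = 3) in WT and 8.70 ± 2.61 in KO, and Tnfrsf10b at 2.69 ± 0.08 in WT and 3.08 ± 0.35 in KO. The other 3 genes lay far below: Tnfrsf11a at 0.199 ± 0.023 and 0.185 ± 0.029, Tnfsf11 at 0.115 ± 0.043 and 0.275 ± 0.103, and Tnfsf10 at 0.0622 ± 0.0551 and 0.0467 ± 0.0076 in WT and KO. In WT the libraries of Tnfsf11 and Tnfsf10 overlapped, whereas Tnfrsf11a stood above Tnfsf11 in each library. In KO, Tnfsf11 stood above Tnfrsf11a in each library, though their ranges overlapped (0.189 to 0.389 and 0.163 to 0.218 CPM per kilobase). Among all genes tested, Tnfrsf11b lay at percentile 89.9 in WT and 74.3 in KO, and Tnfsf10 at percentiles 24.4 and 22.8. The order of the lower 3 genes by mean depended on the length used in WT, but not in KO. Their order within single libraries was compared per kilobase of exon only. Per kilobase of coding sequence, a scale chosen after the data were seen, the WT means were 0.635 for Tnfrsf11a, 0.375 for Tnfsf10 and 0.271 for Tnfsf11, and the KO means were 0.649 for Tnfsf11, 0.589 for Tnfrsf11a and 0.281 for Tnfsf10.

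Set against the RNA of its ligand RANKL in the same sorted cells, osteoprotegerin RNA was in large excess in both genotypes. RANKL of cells outside the sort was not measured. The level of Tnfrsf11b per kilobase was 131, 324 and 223 times that of Tnfsf11 in WT and 34.2, 60.5 and 16.0 times in KO. These ratios do not overlap between genotypes, but they rest on as few as 4 counts of Tnfsf11 in a library. Against the signalling receptor Tnfrsf11a the ratio was 117 ± 5.88 (SD, n = 3) in WT and 48.8 ± 19.0 in KO, and against Tnfrsf10b it was 8.68 ± 1.28 in WT and 2.91 ± 1.22 in KO. Since Tnfrsf11b was chosen for its difference, these ratios are a description as well.

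Within the TNF receptor family, Tnfrsf11b was among the more abundant genes. Of 27 receptor genes tested, 19 had more than 3 counts in every library. Tnfrsf1a, the widely expressed receptor for TNF, ranked first, at 151 ± 5.13 CPM per kilobase (SD, n = 3) in WT and 147 ± 3.67 in KO. Tnfrsf12a, the receptor for TWEAK, followed, at 40.5 ± 8.51 and 54.6 ± 9.68. Tnfrsf11b ranked 5 in WT and 6 in KO by mean. It made up 6.55, 7.93 and 6.82% of the summed receptor level per kilobase in WT and 2.53, 3.61 and 1.98% in KO. The sum over the other 26 receptors was 305 ± 3.80 CPM per kilobase in WT and 313 ± 11.5 in KO, so that it moved by less than the spread of the KO libraries.

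**Figure D2:**
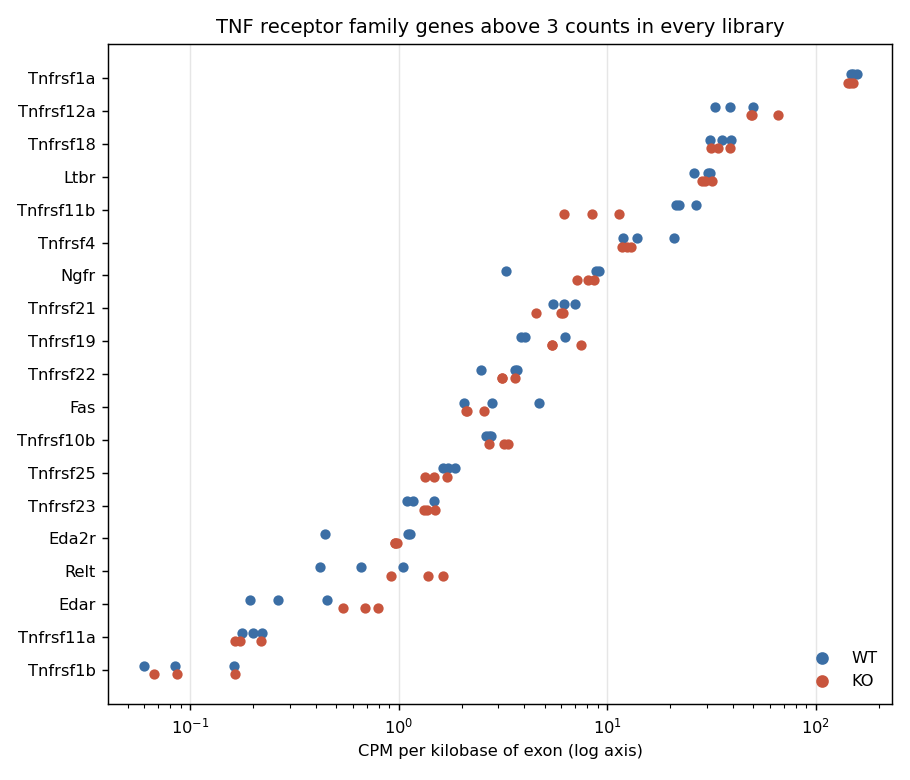
CPM per kilobase of exon (log axis) of the 19 TNF receptor family genes with more than 3 counts in every library, with 1 point per library (blue WT, red KO), in the order of the WT mean. The red and blue points of Tnfrsf11b do not overlap (21.4 to 26.5 in WT, 6.21 to 11.4 in KO), while Tnfrsf11a lies near the bottom at 0.163 to 0.222.

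The TRAIL decoy receptors Tnfrsf22 and Tnfrsf23 differed little between the genotypes. The level of Tnfrsf22 was 13.7 ± 2.84 CPM in WT and 13.9 ± 1.24 CPM in KO (SD, n = 3), a fitted difference of 0.02 on the log2 scale (95% interval −0.35 to 0.38, adjusted p = 0.992 in edgeR). Tnfrsf23, also on chromosome 7, had 4.94 ± 0.78 and 5.52 ± 0.34 CPM, a log2 fold change of 0.16 (95% interval −0.25 to 0.57, adjusted p = 0.735). Per kilobase, Tnfrsf22 (3.24 in WT) was close to Tnfrsf10b (2.69), and their libraries overlapped. Uniquely mapped reads were counted, so reads common to these 2 related genes would be missing from both.

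The wider pathway was examined in 5 lists without the 5 genes themselves. Of 95 listed genes, 91 were tested, and Tnfsf14, Cd40lg, Cd70 and Tnfrsf17 were not analysed here. Tnf was the only one of the 91 to pass, higher in KO, against 0.461% of all genes tested. The median log2 fold change was 0.02 over the lists and 8.82e-05 over all genes. An unadjusted p below 0.05 in edgeR was found in 14 of the 91 genes, against 2503 of all 21681 genes tested. The counts of such genes given for each list below are to be set beside that share. The genotypes did not overlap in 14 listed genes with higher and 6 with lower levels in KO, against 8.03% and 8.23% of all genes. Of the 73 listed genes that reached 10 counts in every library, 66 had an absolute log2 fold change below 0.5.

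Among the other TNF ligands (13 tested), 1 rose, 0 fell and 2 had an unadjusted p below 0.05. Tnf (ENSMUSG00000024401, chromosome 17, 35199381 to 35202007), the inflammatory cytokine, had 0.964, 1.42 and 1.37 CPM in WT and 4.72, 2.72 and 3.05 CPM in KO. Every KO library was above every WT library, and the fitted difference was 1.48 ± 0.29 on the log2 scale (standard error; adjusted p = 0.0472 in edgeR), on 21 to 31 raw counts in WT and 58 to 111 in KO. The call was lost in limma-voom (adjusted p = 0.138), with library size only (0.0561), with filterByExpr (0.131) and when 10 counts were required of every library (0.132). It was also lost without WT c (0.368), KO a (0.333), KO c (0.130) or WT b (0.0712), and over all alternatives the adjusted p ran from 0.00283 in DESeq2 to 0.368. Beside it, myeloid and Langerhans cell markers summed to 8.75 to 15.9 CPM in WT and 10.7 to 14.7 CPM in KO, and T cell markers to 1.47 to 2.47 and 2.20 to 3.40 CPM. Most of the T cell sum was Lck, and Cd3d, Cd3e, Cd3g and Cd8a had at most 10 counts in any library. The part of such cells in the Tnf result was not tested. The ligands with the highest level per kilobase were Tnfsf9, the ligand of 4-1BB, and Eda, the ectodysplasin of hair follicle development. Tnfsf9 stood at 5.46 ± 1.60 CPM (SD, n = 3) in WT and 7.71 ± 1.49 CPM in KO, every KO library above every WT library (adjusted p = 0.453 in edgeR). Eda stood at 37.5 ± 6.54 and 28.3 ± 1.08 CPM, every KO library below every WT library (adjusted p = 0.206 in edgeR).

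Of 24 other TNF receptors tested, 0 passed in edgeR and 3 had an unadjusted p below 0.05. The most abundant per kilobase were Tnfrsf1a, with a fitted difference of −0.05 ± 0.09 (log2, standard error; adjusted p = 0.861 in edgeR), and Tnfrsf12a, with 0.43 ± 0.15 (adjusted p = 0.282). The list of death receptor signalling, through which TRAIL acts, held 20 tested genes, of which 0 passed and 2 had an unadjusted p below 0.05. Its most abundant genes per kilobase by the mean over both genotypes, the mitochondrial pore formers Bax and Bak1, had log2 fold changes of 0.26 (adjusted p = 0.335) and 0.10 (adjusted p = 0.728). In KO alone Cycs, the gene of cytochrome c, stood just above Bak1 (14.5 and 14.2 CPM per kilobase).

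RANK and NF-κB signalling held 29 tested genes, with 0 calls in edgeR and 5 genes at an unadjusted p below 0.05. Over all genes tested, 2503 of 21681 had such a p. Its most abundant genes per kilobase were the AP-1 gene Fos (log2 fold change 0.29, adjusted p = 0.662) and Nfkbia, which encodes an inhibitor of NF-κB (0.46, adjusted p = 0.187). Traf1, an adaptor of TNF receptors that was named after its values were seen, had 3.32 ± 0.78 CPM in WT and 1.29 ± 0.24 CPM in KO. Its log2 fold change of −1.36 missed the threshold in edgeR (adjusted p = 0.0506), and DESeq2 called it. Across the 4 lists with 0 calls in edgeR, limma-voom called no gene and DESeq2 called Traf1 alone. Without WT a edgeR called 7 genes of the 5 lists, and without WT b, WT c, KO a or KO c it called 0.

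Partners of osteoprotegerin and RANKL were abundant by comparison with RANKL itself. Sdc1, a heparan sulfate proteoglycan of the type that binds osteoprotegerin, stood at 1404 ± 223 CPM (SD, n = 3) in WT and 1612 ± 32.5 CPM in KO, a log2 fold change of 0.20 (adjusted p = 0.589 in edgeR). Lgr4, a further receptor for RANKL that is also a receptor for R-spondins, had 270, 296 and 261 CPM in WT and 326, 301 and 335 CPM in KO. Each KO library was above each WT library, but the log2 fold change of 0.22 (95% interval 0.01 to 0.42) did not pass (adjusted p = 0.393 in edgeR). Per kilobase, Lgr4 (46.8 ± 3.11 in WT) stood far above Tnfrsf11a (0.199). In this list 0 of 5 genes passed and 2 had an unadjusted p below 0.05.

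**Figure D3:**
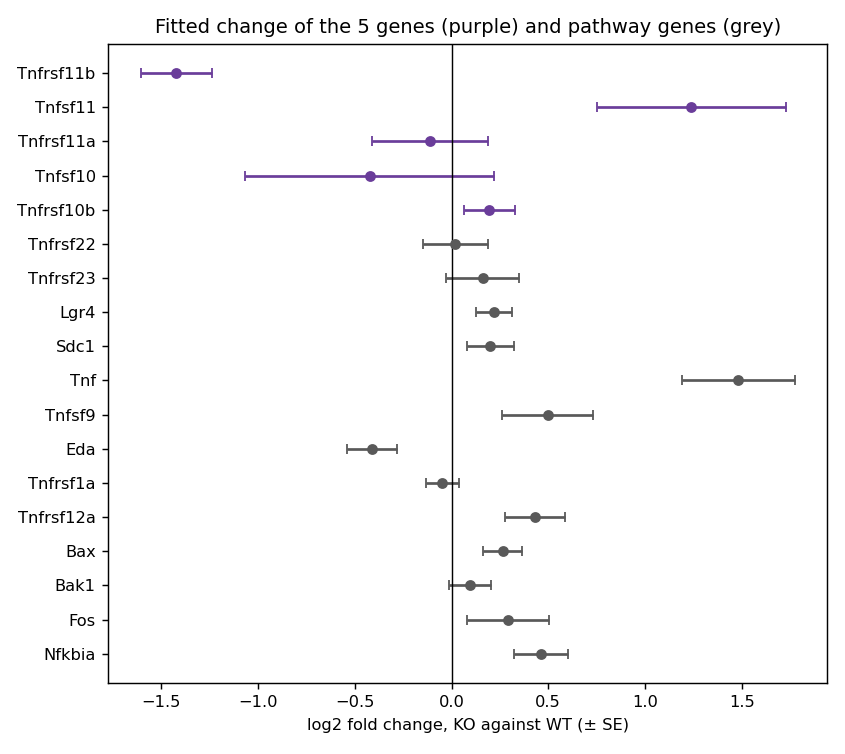
Fitted log2 fold change in KO against WT (± standard error, edgeR) of the 5 genes (purple) and of pathway genes named by rule (grey). Tnfrsf11b (−1.42) was chosen for its difference, Tnf (1.48) is the only one of the others that passed the test, and the bars of Tnfrsf11a, Tnfsf10, Tnfrsf22, Tnfrsf23, Tnfrsf1a and Bak1 cross 0.

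**Figure D4:**
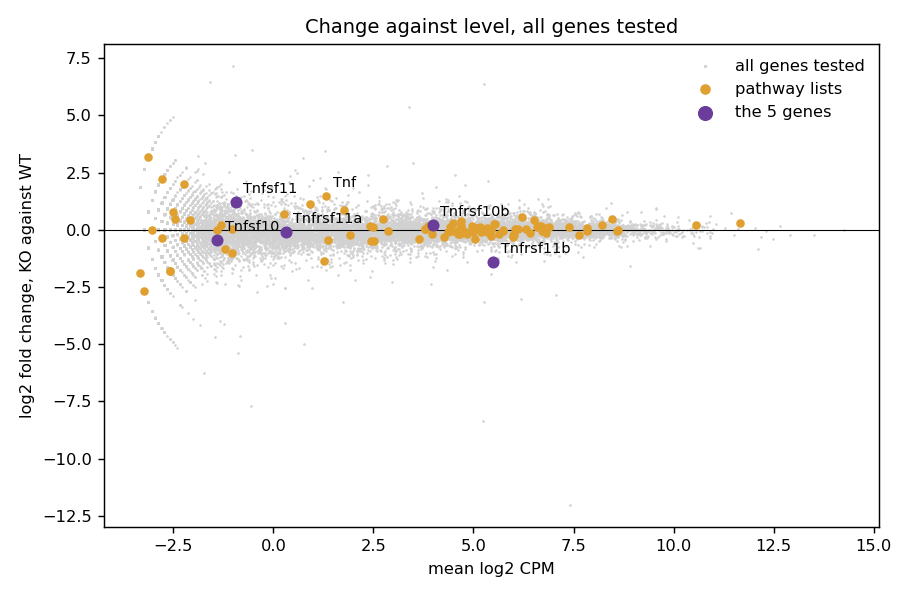
Fitted log2 fold change in KO against WT plotted against mean log2 CPM for the 21681 genes tested (grey), the 91 pathway genes (orange) and the 5 genes (purple). Tnfsf11 and Tnfsf10 lie at low levels, where fold changes of all genes scatter widely, whereas Tnfrsf11b lies at a mean log2 CPM of 5.50, where the scatter is narrower.

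Markers of other cell types were summed in each library. The sort for GFP-positive cells of the K19 lineage should leave such cells out. The summed level of 6 fibroblast markers was lower in KO, as that of Tnfrsf11b was, from 178, 116 and 154 CPM in WT to 48.1, 80.3 and 80.1 CPM in KO, without overlap. Nearly all of this came from Col1a1 and Col1a2, at 85.4 ± 41.8 and 61.9 ± 10.1 CPM (SD, n = 3) in WT. The markers did not move together: 3 were fitted lower in KO (Col1a1, Col1a2 and Pdgfra) and 3 higher (Col3a1, Dcn and Lum), and the median log2 fold change of the 6 was 0.33. In edgeR 0 of the 6 passed, and 5 had an unadjusted p below 0.05, where 2503 of all 21681 genes tested lay. Col3a1 had 0 counts in every WT library and 3, 0 and 29 counts in KO, and Lum had at most 3 counts in any library. Mean levels in WT and KO were 1.03 and 3.70 CPM for Dcn and 1.02 and 0.414 CPM for Pdgfra. Within WT, library b had the lowest fibroblast sum and the highest Tnfrsf11b level. Within KO, library b had the highest Tnfrsf11b level and also the highest sum, though library c was close to it in the sum. Library a had the lowest sum in KO and library c the lowest Tnfrsf11b level. These orders within a genotype are a description only. The part of such cells in the Tnfrsf11b difference was not tested beyond these values. The sum of endothelial markers was also lower in KO without overlap, at 5.56 to 8.67 CPM in WT and 3.70 to 4.97 CPM in KO. Its genes went both ways, 2 fitted higher and 2 lower in KO. Tek, with means of 3.72 and 1.32 CPM in WT and KO, was lower in every KO library. Pecam1, with 1.14 and 1.78 CPM, was higher in every KO library. The part of endothelial cells in the Tnfrsf11b difference was not tested. Melanocyte markers lay at 6.33 to 12.9 CPM in WT and 9.75 to 11.4 CPM in KO. Of the osteoclast markers, Calcr had no count, Oscar was at or below the floor and Ctsk had 3 to 12 counts per library. Only Acp5 was well above the floor, at 86.0 ± 12.2 CPM in WT and 82.2 ± 3.31 CPM in KO.

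The genes whose profile over the 6 libraries was most like that of Tnfrsf11b were sought among 8574 other genes with a mean log2 CPM above 4, by the root mean square distance between log2 CPM values centred on each gene's mean. This distance includes the split by genotype for which Tnfrsf11b was chosen and also the differences between libraries of 1 genotype. Its median over these genes was 0.798. Nptx1, which encodes a secreted pentraxin, was nearest (0.191), with 104, 89.6 and 99.8 CPM in WT and 30.9, 53.4 and 25.7 CPM in KO. Next came Ctgf (0.293), the older symbol of the matricellular protein gene Ccn2, then Acsbg1 (0.297), an acyl-CoA synthetase gene, Scube2 (0.301), which encodes a secreted protein that helps release hedgehog ligands, and Ednra (0.312), an endothelin receptor gene. As in Tnfrsf11b, KO b was the highest KO library in all 5 of these genes, and WT b was the highest WT library in Acsbg1, Scube2 and Ednra but not in Nptx1 and Ctgf. The genes were picked by their distance over these same 6 libraries, so a shared order of libraries is a description only. The 4 partner genes had a mean log2 CPM below 4 and so were not among the genes searched. Their distances ran from 0.763 for Tnfrsf11a, which is below the median of 0.798, to 1.37 for Tnfsf11. Most of the partners have few counts, so these distances are not on a par with those of the genes searched.

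**Figure D5:**
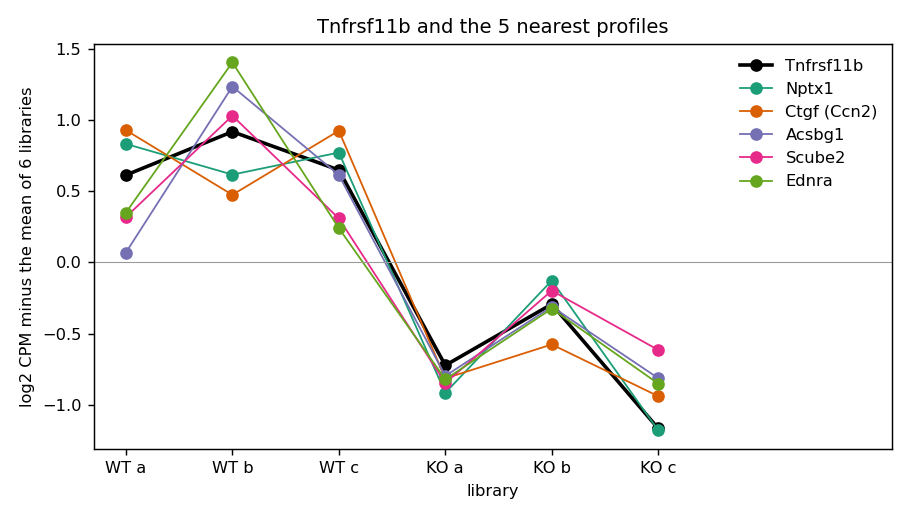
Log2 CPM minus the mean over the 6 libraries for Tnfrsf11b (black) and the 5 genes with the nearest profiles, with 1 point per library; lines only join the points of a gene. All 6 genes are above 0 in the WT and below 0 in the KO libraries, and KO b lies nearest to 0 among the KO libraries. The 5 genes were picked by their likeness to Tnfrsf11b over these same 6 libraries.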

How the data were processed

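The deposited table holds raw counts per gene, which the authors made from strand-specific mRNA-seq reads aligned with TopHat to GRCm38, counting unique reads on the gene's strand. Submitters' processing notes name TopHat2 2.1.0, Bowtie 1.1 and HTSeq. Genes at 0 in all libraries were dropped, CPM were scaled with TMM factors, and KO was compared with WT by edgeR's quasi-likelihood test (edgeR 4.0.16, R 4.3.3) with Benjamini-Hochberg adjustment over all 21681 genes; limma-voom (limma 3.58.1), DESeq2 1.42.0, other scalings, stricter filters and leaving out single libraries were alternatives. Levels per kilobase used summed exon length from a GENCODE annotation of GRCm38, which covered 98.9% of genes. Each library came from 1 mouse, with 20578309 to 23670507 counts, and precision is limited for genes with few counts. The 5 genes and the lists were chosen with earlier results of these data known. Named by rule were the 5 genes, Itga3, Tnfrsf22, Tnfrsf23, Lgr4, in each pathway list up to 4 called genes and the 2 of highest level per kilobase, and the 5 nearest profiles. Intervals on counts cover counting error only.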

Additional observations from a re-analysis of the deposited data

How the results depend on the processing

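The number of genes called over the whole table depended on the method and on single libraries. It was 146 in edgeR, 24 in limma-voom, 546 in DESeq2, 15 with filterByExpr (13810 genes tested) and 12 with at least 10 counts in each library (13054 genes tested), and between 5 and 521 when 1 library was left out. Of the pathway lists 1 gene was called in edgeR, 0 in limma-voom, with library size only, with filterByExpr and with the 10-count minimum, 2 in DESeq2, and 0 to 7 when 1 library was left out. The log2 fold change of Tnfsf10 lay between −0.77 and 0.59 when 1 library was left out and turned positive without WT c; the cause was not tested beyond its 15 counts there. That of Tnfrsf11b stayed between −1.46 and −1.42 under other methods with all libraries. None of the 4 partner genes was called under any alternative. Tnfsf11 and Tnfsf10 had no value under either stricter filter, which removed them. Per kilobase of coding sequence from GENCODE, chosen after seeing the data, 3 of the 5 genes kept their place in the order of means over all libraries. A coding length from a protein table was not run. No paired analysis was possible because each library is a separate mouse and nothing ties the table's columns to the numbered samples of the labels. Tnfsf11 and Tnfsf10 had under 20 counts in each library. With 3 libraries of a genotype, a change in either gene would have to be large to be detected.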
